A study of Mus musculus with 48 samples.

Results

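The cytosolic ribosomal protein genes were taken from the deposited FPKM table as the protein-coding genes whose symbol starts with Rpl or Rps and a digit, together with Rplp0, Rplp1, Rplp2 and Rpsa, leaving out the Rps6k kinases and names that contain -ps. The rule gave 86 of 54532 genes. By the names of their products, 43 encode proteins of the large (60S) subunit, 31 encode proteins of the small (40S) subunit, 3 encode the P-stalk and 8 are paralogs of a core subunit gene. The remaining gene, Rps19bp1, encodes a binding partner of RPS19 and not a ribosomal protein. FPKM is the number of fragments per kilobase of gene per 1000000 reads, so it is a level per length.

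RNA was sequenced from the hippocampus and from a brain hemisphere of male wild type C57Bl6 mice, with 6 libraries in each of 8 groups. In each region the groups were angiotensin II, angiotensin II with hydralazine, vehicle with hydralazine, and vehicle. Angiotensin II, a peptide hormone that raises blood pressure, was given at 0.7 mg/kg per day from an osmotic minipump for 2 weeks, and the vehicle was 0.9% saline. Hydralazine, a vasodilator that lowers blood pressure, was given at 50 mg/kg in the drinking water; the age of the mice is not given. The labels do not say that each library came from a separate mouse, so p-values measure only the spread between these libraries.

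Cytosolic ribosomes are built from ribosomal RNA and ribosomal proteins, and the proteins are made in near-equal numbers because each ribosome holds a single copy of most of them. In mammals most of these messages begin with a C followed by a run of pyrimidines, the 5' terminal oligopyrimidine motif, through which LARP1 and the kinase mTORC1 set how well they are translated. In neurons ribosomal protein messages are also found in dendrites and axons, where local translation takes place. Each brain region is a mixture of cell types, so more cells of a type and more RNA per cell cannot be told apart in these data.

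The DNA at the start of several members is shown because the pyrimidine run is described for most messages of this gene class. All members shown have a run of at least 8 letters. Not every member had such a run: the longest was 7 letters in Rpsa and in Rps27rt and 5 letters in Rplp0, none of them shown. The run of Rpsa was cut by the edge of the search, 50 bases before the annotated start. Other members not shown had longer runs, with 14 letters in Rpl22 and in Rpl39. The run marked in Rps15 starts 25 bases after the annotated start. Each line is the strand of the gene, 5' to 3', from RefSeq (GRCm38.p6), and the capitals mark a run of C and T that begins with C near the annotated start.
Rps6 (chr4:86857347-86857376, minus strand): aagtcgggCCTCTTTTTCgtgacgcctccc
Rps15 (chr10:80292448-80292477, plus strand): agcccgtaCTTCCTTTTCCgagtaaccgcc
Rplp2 (chr7:141447639-141447668, plus strand): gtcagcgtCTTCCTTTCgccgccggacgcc
Rps27 (chr3:90213629-90213658, minus strand): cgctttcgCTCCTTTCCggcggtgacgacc
Rpl15 (chr14:18270969-18270998, minus strand): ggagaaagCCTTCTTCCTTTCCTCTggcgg
Rpl22l1 (chr3:28805503-28805532, plus strand): agcccgttCTCTTCCCacggctgcagctca
Rps10 (chr17:27635226-27635255, minus strand): cgcgcacgCCCCTTCCTTTCCagcctccgc
Among the 57 subunit and stalk members with a RefSeq promoter window, 48 (84.2%) held such a run of at least 8 letters within 50 bases either side of a start, against 32.0% of all 27025 genes with a window; a gene counted where any of its windows held the run. The motif CCGGAAG, searched on both strands of the 300-base window, was found for 42.1% of these members and for 9.93% of all genes. TATAAA, the core promoter box, was found for 10.5% of the members and for 15.7% of all genes. GGGCGG was found for 61.4% of the members and for 38.2% of all genes. These matches describe the letters in the window and were not set against any value below.

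The members were among the most abundant messages per length, and 54 of the 86 averaged more than 100 FPKM over the 48 libraries. Rplp1, which encodes an acidic protein of the stalk that recruits elongation factors, averaged 1840 FPKM and ranked 12th of all genes in the table. Rps15, a protein of the 40S head, averaged 776 FPKM, and Rpl36, a 60S protein, averaged 547 FPKM. Rpl36al, the paralog of Rpl36a, averaged 0.399 FPKM. At the other end, Rpl10l, a paralog of Rpl10 known from testis, was listed at 0 in every library. Rpl39l, another paralog known from testis, averaged 0.107 FPKM, and Rpl3l, a paralog of Rpl3 known from muscle, averaged 0.265 FPKM. In each region and over both, the paralogs Rpl10l, Rpl39l and Rpl3l missed the filter of 0.5 FPKM in at least 6 libraries, so 83 members were tested in the hippocampus and across regions; Rpl36al also missed it in the hemisphere, where 82 were tested.

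Levels per length were lower in longer members. The members were short, with a median length in the table of 1730 bases against 3497 bases over all genes tested, running from 374 bases in Rps27rt to 6270 bases in Rps15a. Across the 77 subunit and stalk members, which are not independent replicates, the rank correlation of length with mean FPKM was -0.69, whereas that of length with the reads summed over 48 libraries was 0.02. The ratio of the 90th to the 10th percentile of these members was 7.05 for FPKM and 3.73 for reads. The lengths are those the authors divided by, and they include transcript ends that a short messenger RNA may not use: Rps15a encodes a small 40S protein although its length was the longest. Levels between members therefore carry the annotation's lengths, whereas a fold change between libraries of a single member does not.

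**Figure D1:**
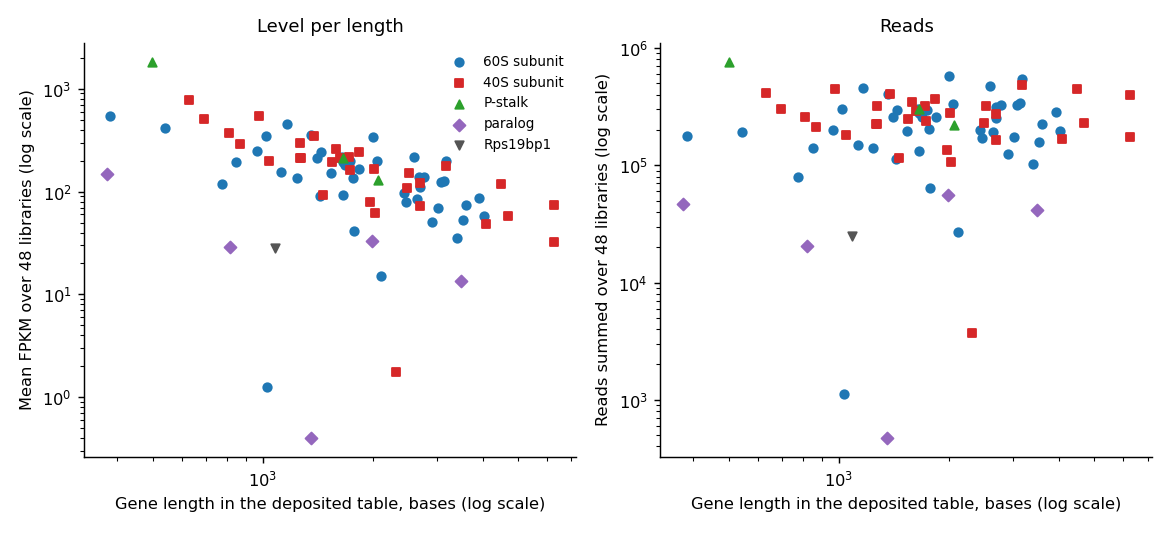
Mean FPKM over 48 libraries (left) and reads summed over 48 libraries (right) against the gene length in the deposited table, both on log scales, with a point for each of the 83 members tested across regions. FPKM falls with length (rank correlation -0.69 over 77 subunit and stalk members), whereas reads do not (0.02).

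Several members share sequence with copies elsewhere in the genome, and their values are uncertain. The table lists 290 ribosomal protein pseudogenes outside the rule, of which 203 were above 0 in at least 1 library. Rps10, a 40S protein, averaged 1.76 FPKM, while Rps10-ps2, a copy of 496 bases, averaged 160 FPKM. Rps27 encodes a 40S zinc-finger protein, and Rps27rt is its intronless retrogene copy, listed as a gene of its own. In 1 hemisphere library, angiotensin II replicate 4, Rps27 was at 37.7 FPKM and Rps27rt at 339 FPKM. Over the 24 hippocampal libraries the coefficient of variation was 46.4% for Rps27, 57.2% for Rps27rt and 33.3% for both summed, in reads per 1000000. Over the 24 hemisphere libraries it was 25.7% for Rps27, 74.3% for Rps27rt and 15.1% for both summed. The pair's sum varied less than either gene alone in both regions. In addition, 19 members overlap another protein-coding gene, 4 of them on the same strand (Rpl13, Rpl13a, Rps10 and Rpl36al).

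Reads in genes, in units of 1000000 reads (M), were 1.21 to 21.0 M in the hippocampal libraries and 15.8 to 23.5 M in the hemisphere ones. In the hippocampus 6 libraries listed fewer than 16000 genes above 0, and the shallowest, vehicle with hydralazine replicate 3, listed Rps27, Rps28, Rpl15, Rpl7a, Rps27l and Rps10 at 0. Angiotensin II replicate 6 stood apart from its group in both regions, in opposite directions, as described further on. Values without these libraries are given beside the medians and counts that they move. Markers of hippocampal neurons followed the tissue labels, with a summed level of 285 to 432 FPKM in the hippocampal libraries and of 72.2 to 90.5 FPKM in the hemisphere libraries.

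The hippocampus held a larger share of ribosomal protein reads than the hemisphere under every treatment. With angiotensin II the 86 genes took 1.44 to 3.59% of the reads in hippocampal libraries (median 3.10%), against 1.48 to 1.99% in hemisphere libraries (median 1.55%). The hippocampal and hemisphere values overlapped in that treatment through replicate 6 alone, and without it the hippocampal share was 2.96 to 3.59%. With both agents the share was 3.01 to 3.75% in the hippocampus and 1.48 to 1.75% in the hemisphere. With hydralazine alone it was 2.24 to 3.56% in the hippocampus and 1.41 to 1.73% in the hemisphere. In vehicle mice it was 2.43 to 3.62% in the hippocampus (median 3.11%), against 1.33 to 1.72% in the hemisphere (median 1.43%). Apart from hippocampal replicate 6, every hippocampal library lay above every hemisphere library in this share.

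**Figure D2:**
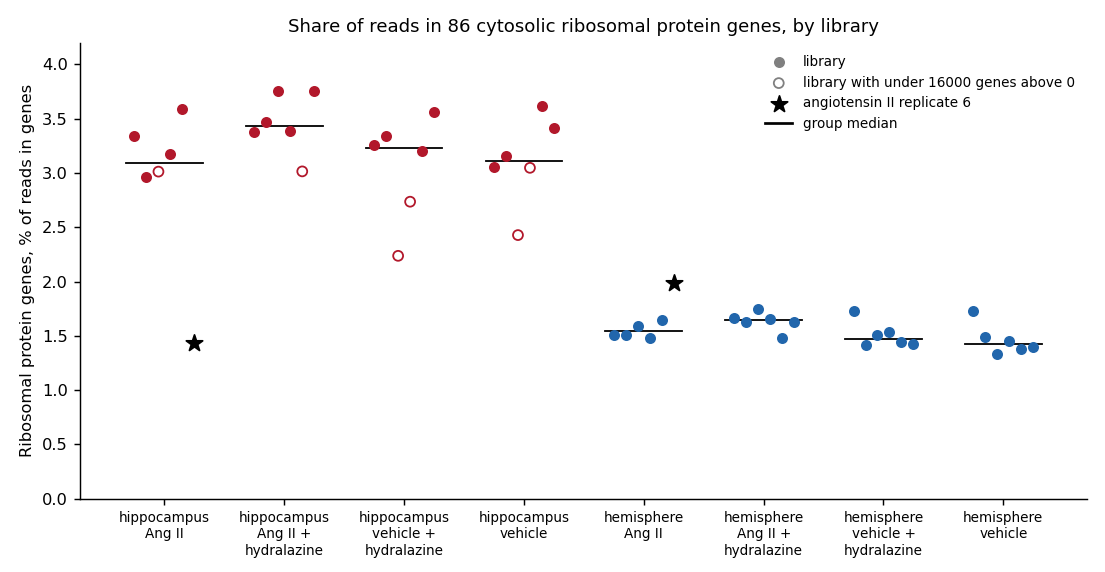
Percent of reads in genes that fell in the 86 members, with a point for each library, open circles for the 6 hippocampal libraries with under 16000 genes above 0, stars for angiotensin II replicate 6 and lines for group medians. The hippocampal groups have medians of 3.10 to 3.43% and the hemisphere groups of 1.43 to 1.64%, and the 2 stars sit at 1.44% (hippocampus) and 1.99% (hemisphere).

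Gene by gene, nearly all members were higher in the hippocampus of vehicle mice. Fold changes are on the log2(FPKM + 0.5) scale, hippocampus over hemisphere, with their standard error (SE), and a member was called at a Benjamini-Hochberg adjusted p under 0.05 over all genes by limma. Of the 83 members tested, 72 were called higher and 1 lower. Over all 17643 genes tested 42.2% were called, 12.7% higher and 29.5% lower. The members' median difference was 1.23, which is 2.35-fold, beside -0.21 over all genes. Every hippocampal vehicle library lay above every hemisphere vehicle library for 67 of the 83 members, and for 10.4% of all genes.

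Rplp1, Rpl30, Rps13 and Rps12 were among the members with the largest called differences. Rplp1 had 2077 to 2901 FPKM in hippocampal vehicle libraries (median 2732 FPKM), against 732 to 1109 FPKM in hemisphere vehicle libraries (median 844 FPKM). The groups did not overlap, and the log2 difference was 1.58 ± 0.16 (SE, n = 6 each, limma adjusted p = 6.10e-11). Rplp2, its partner on the stalk, was at 92.5 to 211 FPKM in the hippocampus (median 192 FPKM), against 55.6 to 77.5 FPKM in the hemisphere (median 60.9 FPKM). Rplp0, the base on which both stalk proteins sit, was at 220 to 303 FPKM in the hippocampus (median 280 FPKM), against 124 to 156 FPKM in the hemisphere (median 132 FPKM). The median over the 3 stalk genes was 1.45, and each of the 3 was called higher.

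In the 40S subunit 28 of 31 members were called higher and 1 lower, with a median log2 difference of 1.32. Rps13 was at 95.4 to 132 FPKM in the hippocampus (median 106 FPKM), against 33.6 to 49.2 FPKM in the hemisphere (median 36.8 FPKM), a log2 difference of 1.50 ± 0.29 (limma adjusted p = 4.12e-05), and the limma value for Rps12 was 1.47 ± 0.21 (adjusted p = 1.90e-07). Both encode core 40S proteins. Rpsa, which encodes a 40S protein also known as the laminin receptor, was at 194 to 235 FPKM in the hippocampus (median 226 FPKM), against 111 to 145 FPKM in the hemisphere (median 118 FPKM). Rps6, the subunit protein that S6 kinase phosphorylates, was at 235 to 387 FPKM in the hippocampus (median 327 FPKM), against 164 to 208 FPKM in the hemisphere (median 168 FPKM). Both were called, at log2 differences of 0.86 for Rpsa and 0.87 for Rps6, below the 40S median. Rps27a, which encodes a 40S protein fused to ubiquitin, was called higher at 1.14 ± 0.37 (limma adjusted p = 0.0120).

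In the 60S subunit 39 of 43 members were called higher, with a median log2 difference of 1.22. Rpl30 was at 53.2 to 129 FPKM in the hippocampus (median 93.6 FPKM), against 25.1 to 39.6 FPKM in the hemisphere (median 30.1 FPKM), a log2 difference of 1.52 ± 0.21 (limma adjusted p = 5.63e-08). Rpl10, which is loaded onto the 60S subunit late in its assembly, differed by 1.24 ± 0.12 (limma adjusted p = 9.58e-12). Rpl39, a small protein at the exit tunnel, differed by 1.30 ± 0.32 (limma adjusted p = 0.000872). Rpl3, a 60S protein near the peptidyl transferase centre, had one of the smaller called differences, 0.65 ± 0.10 (limma adjusted p = 2.76e-07). The 2 regions were still apart for it, at 204 to 244 FPKM in the hippocampus and 136 to 165 FPKM in the hemisphere. Rpl41, the smallest ribosomal protein, was not called (0.74 ± 0.41, limma adjusted p = 0.141), with 114 to 804 FPKM in the hippocampus and 237 to 328 FPKM in the hemisphere.

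Of the 5 paralogs tested, 1 was called higher and 0 lower, with log2 differences from -0.12 to 1.29. Rpl22, an RNA-binding 60S protein, and its paralog Rpl22l1 were both called higher. Rpl22l1 was at 36.7 to 54.3 FPKM in the hippocampus (median 47.6 FPKM), against 13.0 to 24.9 FPKM in the hemisphere (median 19.1 FPKM), a log2 difference of 1.29 ± 0.19 (limma adjusted p = 2.83e-07). Rpl22 was at 58.0 to 69.3 FPKM in the hippocampus (median 65.3 FPKM), against 32.9 to 39.6 FPKM in the hemisphere (median 35.2 FPKM), a log2 difference of 0.84 ± 0.07 (limma adjusted p = 9.12e-13). Whether the difference for Rpl22l1 exceeded that for Rpl22 was not tested. Rpl7l1, a paralog of Rpl7 known from pre-ribosomes, had a difference of -0.06 ± 0.09 (limma adjusted p = 0.631), with 12.8 to 14.9 FPKM in the hippocampus and 12.9 to 15.5 FPKM in the hemisphere. Rps27l, a paralog of Rps27, was not called at 1.12 ± 0.57 (limma adjusted p = 0.112). Rps19bp1, the binding partner, was called higher at 0.98 ± 0.16 (limma adjusted p = 1.36e-06).

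The only member called lower was Rps10, and its copy went the other way. Rps10 was at 0.891, 2.16, 0, 0.150, 1.49 and 1.66 FPKM in the 6 hippocampal vehicle libraries, against 2.86, 2.02, 2.63, 2.00, 2.02 and 2.08 FPKM in the 6 hemisphere ones, a log2 difference of -1.06 ± 0.37 (limma adjusted p = 0.0176). Rps10-ps2 was at 228 to 260 FPKM in hippocampal vehicle libraries (median 239 FPKM), against 81.5 to 122 FPKM in hemisphere vehicle libraries (median 92.3 FPKM). Rps10 and its copies together took 113 to 136 reads per 1000000 in the hippocampus, against 49.0 to 70.3 in the hemisphere. The summed value was thus higher in every hippocampal vehicle library, and the call on Rps10 was lost without hippocampal vehicle replicate 3 (-0.79) or replicate 4 (-0.86). It was kept at -0.46 without all 6 few-gene libraries, and lost with no filter on low values, with quantile normalization (-0.54) and with a replicate block and the GC trend removed (-0.94).

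The remaining members not called in vehicle mice were Rps28, Rpl7a, Rps27, Rpl15, Rpl24, Rps27rt and Rpl36al. Several had a large spread in the hippocampus: the within-group SD of log2 values was 2.05 for Rps27, 1.73 for Rps28, 1.60 for Rpl15 and 1.46 for Rpl7a, against a median of 0.39 over members. All of these are listed at 0 in the shallowest hippocampal library, whose spread enters the shared error. Without the 6 few-gene libraries, 80 members were called, 79 higher and 1 lower, and the median was 1.33. With angiotensin II replicate 6 left out as well, 79 were again called higher and 1 lower, beside 68.9% of all genes called.

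In vehicle mice the members' median region difference was above 1 in every length class that held members, and in angiotensin II mice, replicate 6 included, it was 0.81 to 0.95. In vehicle mice it was 1.29 in the 3 genes under 500 bases and 1.14 in those of 4000 to 8000 bases, while other genes in the same length classes had medians of -0.30 and -0.30. In the classes between, the members' medians were 1.27, 1.29 and 1.18, and those of the other genes were 0.03, 0.04 and -0.17. Removing a trend on length from every library left the members' median at 1.20.

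**Figure D3:**
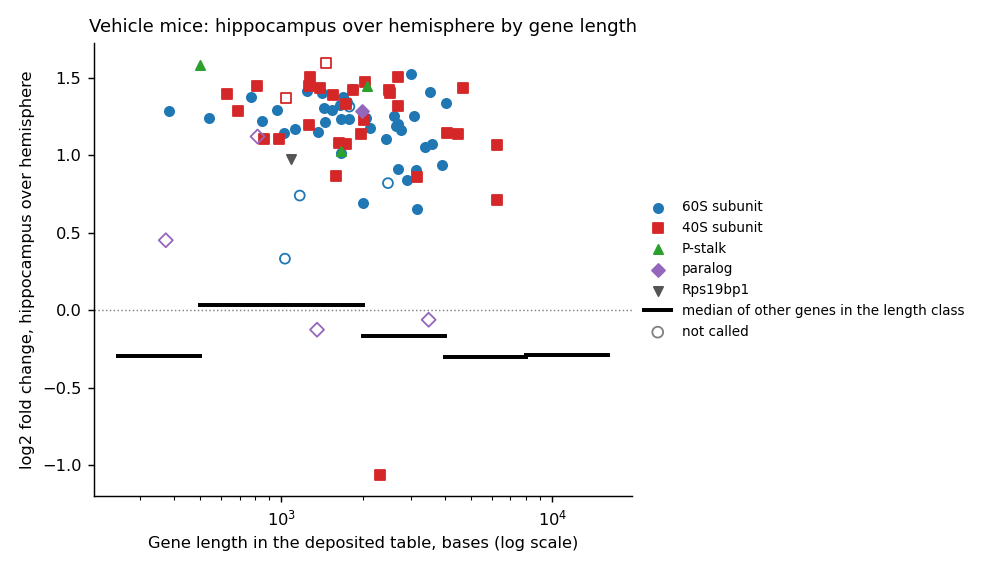
Log2 difference, hippocampus over hemisphere, in vehicle mice against gene length (log scale), with a filled symbol for each called member and an open one for each member not called; black bars are the medians of all other genes in each length class. Most members lie near 1.23 in every length class, above bars that run from -0.30 to 0.04.

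The angiotensin II groups gave the same comparison in other libraries. Here 71 of 83 members were called higher and 0 lower, when 37.0% of all 17643 genes were called, 12.4% higher and 24.6% lower. The members' median was 0.92, and 1.22 without replicate 6, when 72 were called, beside 39.1% of all genes. Among the largest called differences were those of Rpl30 (1.42), Rpl22l1 (1.37), Rpl23a (1.24) and Rpl35 (1.19). The value of Rpl23a was 1.09 without replicate 6, in which the hemisphere library was low for this gene. That library was also low for Rpl22l1 and Rpl35, at log2 differences of -1.18 and -0.65 from the others of its group. Over all members the highest region difference was 1.42 with all libraries and 1.76 without replicate 6. The ranking of the named members therefore holds only with replicate 6 included. For Rpl22l1 the values were 20.8 to 54.8 FPKM in the hippocampus (median 49.6 FPKM), against 8.11 to 22.9 FPKM in the hemisphere (median 18.3 FPKM). Every hippocampal library lay above every hemisphere library for 3 of the 83 members with all libraries and for 76 without replicate 6. For all genes these shares were 7.19% and 17.8%. As a description over the other treatments, the members' median difference was 1.20 with both agents and 1.03 with hydralazine alone.

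Other gene groups are read against the 12.7% of all genes called higher and the 29.5% called lower in vehicle mice. All 3 ribosomal proteins named outside the rule were called higher (median log2 difference 1.16). Of 77 mitochondrial ribosomal proteins 45 were called higher and 1 lower (median 0.62), and of 63 nuclear genes of the respiratory chain 55 were called higher and 1 lower (median 1.07). Translation factors had 22 higher and 2 lower of 42 (median 0.33). Genes for ribosome biogenesis had 6 higher and 3 lower of 32 (median 0.04), and the mTORC1 and LARP1 pathway had 4 higher and 9 lower of 20 (median -0.25). Markers of hippocampal neurons were called higher in 10 of 10, and markers of the choroid plexus lower in 8 of 9 tested. The choroid plexus sum was 22.1 to 2071 FPKM in the hippocampal libraries and 328 to 917 FPKM in the hemisphere libraries. Microglia markers were called higher in 4 of 10, with sums of 248 to 509 FPKM in the hippocampus and 188 to 274 FPKM in the hemisphere. The share of mitochondrially encoded reads was 5.74 to 10.5% in the hippocampus and 2.77 to 7.22% in the hemisphere. Their part in the members' difference was not tested, and the labels name no batch, so region and any batch of library preparation cannot be told apart.

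No member was called in any treatment comparison. By limma, 0 of 83 hippocampal members and 0 of 82 hemisphere members were called in each of the comparisons below. Of all 15267 genes tested in the hippocampus, 0% were called in each of the 6 comparisons. Of all 16747 genes tested in the hemisphere, 0.0717% were called between angiotensin II and vehicle and 0% in each of the other 5 comparisons.

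In the hemisphere the members' median log2 difference between angiotensin II and vehicle was 0.15, with 73 of 82 members above zero, and 12 members (14.6%) had an unadjusted p under 0.05, beside 9.24% of all genes. Without replicate 6 the median was 0.08, and 4 of 82 members had an unadjusted p under 0.05, beside 7.37% of all genes. The smallest p was that of Rpl7a, a 60S protein, at 22.4 to 44.3 FPKM with angiotensin II (median 32.0 FPKM) and 22.7 to 27.4 FPKM with vehicle (median 25.1 FPKM), and its limma adjusted p was 0.376. The next were Rpl15, another 60S protein, with a log2 difference of 0.15 (limma adjusted p = 0.466) and Rps29, a 40S protein, with 0.46 (limma adjusted p = 0.490). Rplp0 was at 136 to 265 FPKM with angiotensin II (median 143 FPKM) and 124 to 156 FPKM with vehicle (median 132 FPKM), and the 2 groups overlapped. The highest angiotensin II values of Rpl7a, Rps29 and Rplp0 were those of replicate 6, at 44.3, 623 and 265 FPKM. In the other libraries of that group they reached 35.3, 427 and 148 FPKM.

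Angiotensin II with hydralazine against angiotensin II alone had a median log2 difference of 0.01 in the hemisphere, with 46 of 82 members above zero. In it 2 members (2.44%) were under an unadjusted p of 0.05, beside 4.54% of all genes. Without replicate 6 the median was 0.07, with 74 above zero and 0 under an unadjusted p of 0.05. With all libraries its smallest p was again that of Rpl7a (-0.29 ± 0.11, limma adjusted p = 0.851). Angiotensin II with hydralazine against vehicle had a median of 0.15, 79 of 82 members above zero, and 15 members (18.3%) under an unadjusted p of 0.05, beside 5.21% of all genes. With library weights 8 of 82 members were called in it, beside 0.609% of all genes. Angiotensin II replicate 6 enters this comparison through the shared error. Without that library 36 of 82 members were under an unadjusted p of 0.05, beside 9.48% of all genes, and 0 were called. The comparison shares its vehicle libraries with that of angiotensin II against vehicle. Its smallest p belonged to Rpl13a, a 60S protein (0.26 ± 0.09, limma adjusted p = 0.728). Against vehicle with hydralazine, the median was 0.11, and 10 members (12.2%) were under an unadjusted p of 0.05, beside 2.99% of all genes. Without replicate 6 there were 19 of 82, beside 5.36% of all genes. Hydralazine alone against vehicle had a median of 0.04, with 0 members under an unadjusted p of 0.05 by limma. The interaction of both agents had a median of -0.02 with 35 of 82 above zero and 0 under an unadjusted p of 0.05 by limma. Without replicate 6 its sign turned, at a median of 0.03 with 63 above zero. Then 1 member was under an unadjusted p of 0.05, beside 3.33% of all genes.

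In the hippocampus the members' median difference between angiotensin II and vehicle turned sign with the libraries used. With all libraries it was -0.14, beside 0.04 over all genes, with 11 of 83 members above zero. Of the members 0 had an unadjusted p under 0.05, beside 1.38% of all genes. Without replicate 6 the median was 0.07, with 61 of 83 above zero, and with the 6 few-gene libraries left out as well it was -0.0070, with 36 above zero. The smallest p values belonged to 3 members that did not pass the adjustment: Rps12 at -0.47 ± 0.26, Rps9 at -0.29 ± 0.16 and Rpl26 at -0.30 ± 0.19 (log2 difference and SE). Rps12 was at 37.2 to 87.2 FPKM with angiotensin II (median 76.9 FPKM) and 83.5 to 123 FPKM with vehicle (median 92.9 FPKM). Rplp1 was at 1012 to 3218 FPKM with angiotensin II (median 2643 FPKM) and 2077 to 2901 FPKM with vehicle (median 2732 FPKM), so the angiotensin II values lay on both sides of the vehicle ones. Rps6 was at 174 to 353 FPKM with angiotensin II (median 328 FPKM) and 235 to 387 FPKM with vehicle (median 327 FPKM).

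Angiotensin II with hydralazine against angiotensin II had a median of 0.31 in the hippocampus. It had 80 of 83 members above zero, beside 46.6% of all genes. Of the members 10 were under an unadjusted p of 0.05, beside 1.65% of all genes. Without replicate 6 the median was 0.11, with 72 above zero. Then 1 member was under an unadjusted p of 0.05, beside 0.671% of all genes. There were 9 of 83 with the few-gene libraries left out as well, at a median of 0.12, beside 5.22% of all genes. With all libraries the smallest p in this comparison was that of Rpsa (0.35 ± 0.14, limma adjusted p = 1). Rpsa was at 232 to 338 FPKM with both agents (median 238 FPKM) and 124 to 248 FPKM with angiotensin II alone (median 213 FPKM). Both agents against vehicle had a median of 0.16, beside 0.03 over all genes. In it 0 members were under an unadjusted p of 0.05, beside 1.98% of all genes. Without replicate 6, whose spread enters the shared error, there were 9 of 83 such members, beside 2.38% of all genes. With the few-gene libraries left out as well there were 11 of 83, at a median of 0.10, beside 11.1% of all genes under that p. Both agents against vehicle with hydralazine had a median of 0.23, beside 0.15 over all genes. In it 1 member (1.20%) was under an unadjusted p of 0.05, beside 5.97% of all genes. Without replicate 6 there were 13 of 83 such members, beside 6.38% of all genes. With the few-gene libraries left out as well there were 3 of 83, at a median of 0.08, beside 6.25% of all genes under that p. With all libraries the 1 member was Rps27a (0.93 ± 0.44, limma adjusted p = 0.649), at 109 to 192 FPKM with both agents and 11.0 to 180 FPKM with vehicle and hydralazine. Hydralazine alone against vehicle had a median of -0.07, beside -0.12 over all genes. It had 24 of 83 members (28.9%) above zero, beside 35.6% of all genes. By limma 0 members were under an unadjusted p of 0.05, beside 5.64% of all genes. Without the few-gene libraries and replicate 6 the sign turned, at a median of 0.02 with 56 above zero. Its smallest p belonged to Rpl7a (-1.39 ± 0.79, limma adjusted p = 0.677), which the shallowest library lists at 0. The interaction of both agents had a median of 0.38, beside 0.11 over all genes. In it 2 members (2.41%) were under an unadjusted p of 0.05, beside 2.40% of all genes. The members' median was 0.19 without replicate 6 and 0.11 with the few-gene libraries left out as well.

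The angiotensin II difference in the hippocampus minus that in the hemisphere had a median of -0.28 over 83 members, beside 0.05 over all genes. None was called by limma, beside 0% of 17643 genes. Of the members, 5 (6.02%) had an unadjusted p under 0.05, beside 2.92% of all genes. The smallest p was that of Rps9 (-0.46 ± 0.19, limma adjusted p = 1). Without replicate 6 in both regions the median was -0.0050, with 39 of 83 above zero, and with the few-gene libraries left out as well it was -0.08, with 6 of 83 above zero.

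**Figure D4:**
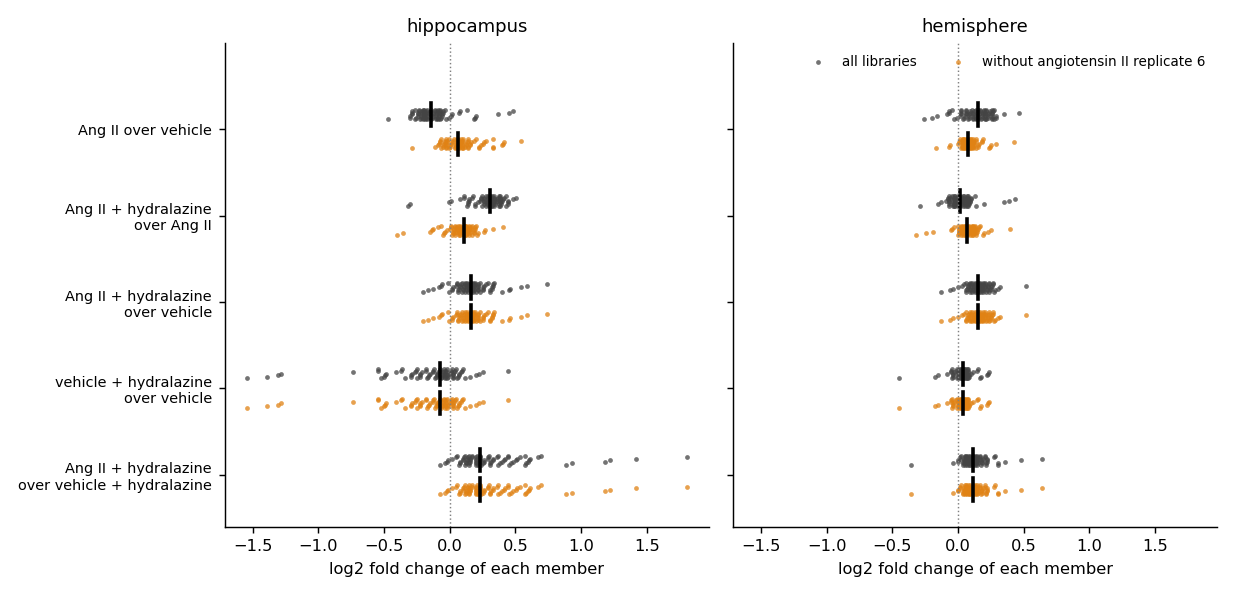
Log2 fold change of each member tested in 5 treatment comparisons in the hippocampus (left) and the hemisphere (right), with all libraries (gray) and without angiotensin II replicate 6 (orange); black bars are medians. The hippocampal median for angiotensin II over vehicle is -0.14 with all libraries and 0.07 without that library, and for both agents over angiotensin II 0.31 and 0.11.

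Angiotensin II replicate 6 of the hippocampus was low for nearly the whole gene class. Of 83 members, 80 lay below the other 5 libraries of the group, 0 lay above them, and 48 were the lowest of all 24 hippocampal libraries. The median log2 difference from the mean of the other 5 was -1.27, about the size of the difference between the regions. Rps27 was at 57.3 FPKM in this library and at 176 to 409 FPKM in the other 5. Rpl37a, a 60S zinc-finger protein, was at 98.3 FPKM in this library and at 234 to 416 FPKM in the others. Rpl7l1 differed by -0.12 on the log2 scale from the mean of the others, at 12.4 to 14.0 FPKM in those. The markers of hippocampal neurons in this library summed to 334 FPKM, inside the range of the other hippocampal libraries, so they were not at the hemisphere level. It had 18.6 M reads in genes and 23025 genes above 0.

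Replicate 6 of the hemisphere was high for most members and low for some. Of 82 members, 55 lay above the other 5 libraries and 11 below, and the median difference was 0.38, from -2.07 to 1.15. Rps28, a 40S protein, was at 104 FPKM against 39.4 to 65.0 FPKM, and Rps29 was at 623 FPKM against 247 to 427 FPKM. In contrast Rpl23a, a 60S protein at the exit tunnel, was at 29.4 FPKM against 116 to 137 FPKM, and Rpl22l1 was at 8.11 FPKM against 16.9 to 22.9 FPKM. Rpl35, a neighbour of Rpl23a at the tunnel, was at 49.3 FPKM against 72.9 to 86.2 FPKM. The share of mitochondrially encoded reads was 2.77% in this library and 5.70 to 7.22% in the other 23.

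The 2 libraries differed in how their deviation ran with base composition. GC share was that of the longest transcript in GENCODE M21, and it was 40.6 to 62.4% over the members (median 51.5%, beside 50.2% over all genes tested). In hemisphere replicate 6 the rank correlation of the deviation from the median of its group with GC share was 0.46 across 82 members and 0.70 across 16648 other genes. In the other 23 hemisphere libraries it was -0.33 to 0.26 across members and -0.27 to 0.37 across other genes. Members under 50% GC had a median difference of 0.12, those of 50 to 55% had 0.51, and those of 55% and over had 0.63. Other genes at 60% GC and over had a median of 0.55 (n = 941), and those under 40% had -0.81 (n = 914). In hippocampal replicate 6 the same rank correlation was -0.21 across members and -0.12 across other genes, and the members' medians in the 3 GC classes were -1.22, -1.25 and -1.37. There the deviation of other genes ran with length instead, at a rank correlation of 0.50, against -0.24 to 0.25 in the other 23 hippocampal libraries, and at 0.28 across members. Genes are not independent replicates, and these correlations describe single libraries. The part of base composition or length in either library was not tested.

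**Figure D5:**
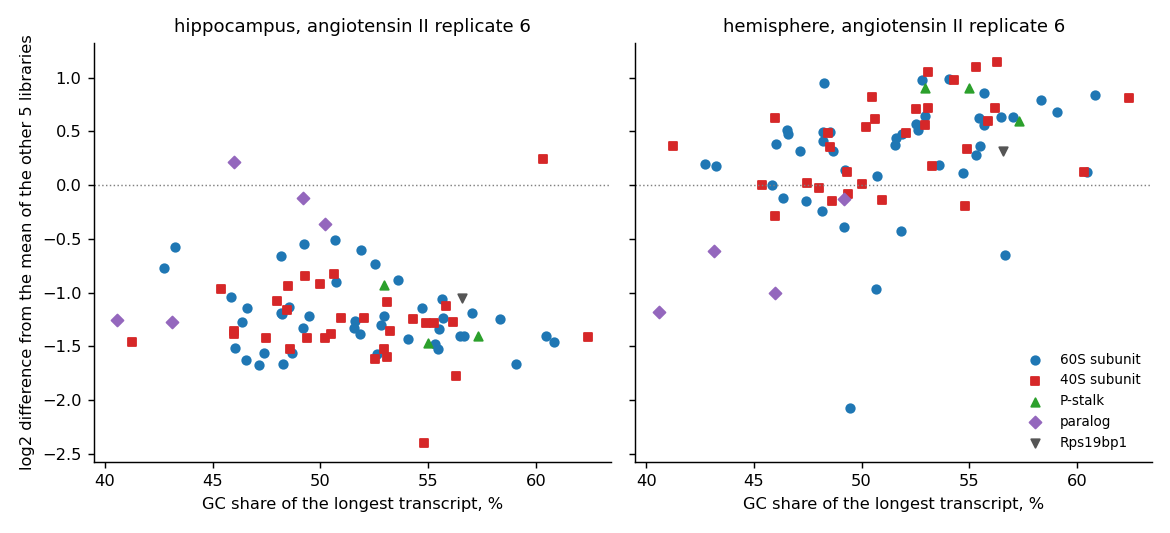
Log2 difference of each member between angiotensin II replicate 6 and the mean of the other 5 libraries of its group, against the GC share of the longest transcript, in the hippocampus (left) and the hemisphere (right). The hippocampal medians in 3 GC classes are -1.22, -1.25 and -1.37, and the hemisphere medians are 0.12, 0.51 and 0.63, with Rpl23a lowest at -2.07.

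The spread between libraries of a group differed between members. In the hippocampus the median within-group SD of log2 values was 0.39 over members and 0.56 over all genes, with 0.15 for Rpl22 and 0.17 for Rpl4 at the low end. In the hemisphere it was 0.18 over members, equal to that over all genes at 2 decimals, with 0.05 for Rps15a and 0.08 for Rpl4 at the low end and 0.93 for Rps27rt at the high end. Rpl4, a 60S protein, was among the steadiest in both regions, and Rps27 and Rps27rt were above the members' median in both. Rps27l was at 1.44 in the hippocampus but at 0.175 in the hemisphere, below the members' median of 0.179 there.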

How the data were processed

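Per the labels' protocols, total RNA was extracted with RNeasy columns and libraries were made by a sequencing company. The authors deposited FPKM for 54532 genes in 48 libraries, with a gene length for every gene. Builds GRCm38 and mm10 and DESeq 1.10.1 are named, per the submitters' processing notes. The aligner, the counting tool and its handling of strand are not given in these sources. Every value column matched 1 library. Each FPKM times its gene length gave a whole number of reads for 99.9994% of values (tolerance 0.1), which supplied the reads and shares; deposited totals differed by library from those a plain FPKM would give (0.87 to 1.07 times). The tests used the deposited FPKM, and no count test was run on the recovered reads.

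Values were tested as log2(FPKM + 0.5) with limma 3.58.1 in R 4.3.3 (moderated with trend and robust prior), over genes at 0.5 FPKM or more in at least 6 libraries, within a region (24 libraries) or over both (48), with two-sided p-values adjusted by Benjamini-Hochberg over all genes tested and called under 0.05. Python 3.11.15 and pandas 2.3.3 were used for tables and matplotlib 3.10.9 for figures. Members, gene lists and tests were chosen with earlier results of these data known. Named members are at most the 5 largest called changes in each direction (otherwise the 3 smallest p), a fixed set of core subunit genes and paralogs, and the extremes of level and length; other members named were chosen after their values were seen, and some members the rule names are not reported here. Promoter windows from RefSeq (GRCm38.p6) matched 66 of 86 members by symbol; a member without a window has none here. GC share was available for 83 of 83 members. Precision is limited by 6 libraries per group; where a value rests on few reads the counting error is large, as in the library of 1.21 M reads (M, 1000000). Alternatives tried were other pseudocounts, filters, scalings, length and GC trends, library weights, a replicate block and libraries left out. The fits were tested on simulated data with known changes.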

Additional observations from a re-analysis of the deposited data

Results flagged for a closer look

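Single libraries that lay far from the other 5 of their group were found for 2 summaries over all members and for 5 members examined one by one; chance gives such a library in about 1 of 20 groups. The members' mean log2 value was 6.19 in hemisphere vehicle replicate 1 (high), 5.92 in hippocampal angiotensin II replicate 6 (low) and 5.70 in hippocampal vehicle with hydralazine replicate 3 (low). The share of reads was 1.99% in hemisphere angiotensin II replicate 6 (high) and 1.44% in hippocampal angiotensin II replicate 6 (low).

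Rplp0 stood apart at 264.6 FPKM in hemisphere angiotensin II replicate 6, at 156.8 FPKM in the hippocampal library of the same name, and at 135.8 FPKM in hippocampal vehicle with hydralazine replicate 3. Rpsa stood apart at 193.7 FPKM in hemisphere angiotensin II replicate 6 and at 137.9 FPKM in hemisphere vehicle with hydralazine replicate 1. Rps6 was high at 207.8 FPKM in hemisphere vehicle replicate 1 and low at 174.4 FPKM in hippocampal angiotensin II replicate 6. Rpl41 was high at 523.6 FPKM in hemisphere angiotensin II replicate 6, and Rps27a was high at 92.7 FPKM in hemisphere angiotensin II with hydralazine replicate 4.

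Among the other tested members, 176 of 624 sets of 6 libraries (28.2%) held such a library. It was hippocampal angiotensin II replicate 6 in 38, hemisphere angiotensin II replicate 6 in 33, hemisphere vehicle replicate 1 in 30, hemisphere vehicle with hydralazine replicate 1 in 26, and hippocampal vehicle with hydralazine replicate 3 in 21. Members of a library share its scaling, so these sets are not independent.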

How the results depend on the processing

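Over the alternatives run, the count of members called kept within 1.5 times its value in 486 of 487 cases. The exception was hemisphere angiotensin II with hydralazine against vehicle, where library weights gave 8 called members, Rpl37a among them, against 0. With these weights 0.609% of all genes were called in it. Outside the region comparisons in vehicle and in angiotensin II mice the reported count was 0, so most of the 487 cases set 0 against 0. Leaving out each library in turn gave 70 to 72 called members for the regions in angiotensin II mice, 72 to 74 in vehicle mice and 0 in every treatment comparison. For these fits and for quantile normalization the share of all genes called is not given here. Quantile normalization lowered the members' region median to 0.56 in angiotensin II mice (59 called) and 0.72 in vehicle mice (69 called); it also moved the median over all genes in vehicle mice to 0.04, and under it Rplp1 and Rps10 were no longer called. Removing the GC trend, chosen after seeing the data, gave medians of 0.95 in angiotensin II mice and 1.23 in vehicle mice. Rps9 in hippocampal angiotensin II against vehicle reversed to 0.0086 with library weights and to 0.0097 without the 6 few-gene libraries and angiotensin II replicate 6, also chosen after seeing the data. Rpl15 in hippocampal vehicle with hydralazine against vehicle reversed to 0.0334 with library weights and to 0.0261 without the few-gene libraries, with or without replicate 6; the library that lists it at 0 is then left out. The cause of the other changes was not tested.

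Same-numbered samples deviated together only between hemisphere vehicle with hydralazine and hemisphere vehicle, where all 6 pairs correlated above 0.1 (0.13 to 0.66), in 1 of 12 pairs of groups within a region and 0 of 4 between regions; the labels do not say what a number marks. With a replicate block 71 members were called in angiotensin II mice, 73 in vehicle mice and 0 in every treatment comparison. Low members such as Rps10 and Rpl36al rest on few reads, and the hippocampal spread limits what a treatment comparison there could show.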
